A study of Mus musculus with 6 samples.

Results

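The 35 genes described here encode the subunits of the hypoxia-inducible factor (HIF), the enzymes that sense oxygen and mark HIF for destruction, and known HIF targets outside glycolysis. They are 35 of the 26437 genes in the expression table. The genes were selected by name from knowledge of the pathway, and the group was put forward after fold changes of hypoxia genes between *Rdh10* KO and wild-type eye tissue were known from the same 6 libraries. The counts, medians and fold changes between the groups therefore describe these genes and are not a test of the group.

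RNA-seq was performed on E10 (embryonic day 10) mouse eye tissue, with 3 wild-type and 3 *Rdh10* KO libraries. Tissue of 3 embryos was pooled for each library, and each group thus holds 9 embryos. The eye tissue was the front of the head with both optic vesicles and the frontonasal region, and it also held some adjacent forebrain. *Rdh10* KO embryos were homozygous for an *Rdh10* null allele and were obtained from heterozygous parents of an outbred Black Swiss and C57BL/6 stock, and wild-type embryos carried no null allele. *Rdh10* encodes the retinol dehydrogenase of the first step of retinoic acid (RA) synthesis, and no treatment is given for either group. Since whole tissue was sequenced, a change in the share of cells that express a gene and a change in its RNA per cell cannot be told apart.

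HIF is a transcription factor made of an oxygen-regulated alpha subunit, encoded by *Hif1a* or *Epas1*, and a stable partner encoded by *Arnt*. With oxygen present, prolyl hydroxylases of the *Egln* family modify the alpha subunit, the protein encoded by *Vhl* then binds it and directs it to the proteasome, and an asparaginyl hydroxylase encoded by *Hif1an* blocks its activity. With little oxygen the alpha subunit accumulates and activates genes for blood vessel growth, mitophagy, collagen modification and other functions, and among its targets are *Egln1* and *Egln3* themselves. Regulation of the alpha subunit is thus mainly at the protein level, which RNA-seq does not measure.

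The libraries held between 16392777 and 27101025 reads on genes. The values are given as normalized counts, which are reads divided by 1 scaling factor per library of 0.85 to 1.40, with no division by gene length. *Rdh10* was at 399, 342 and 381 normalized counts in wild-type and at 183, 142 and 181 in *Rdh10* KO, which is 45.1% of the wild-type mean. Which exons the null allele lacks is not given in the sources used here. Optic vesicle markers were detected in both groups and summed to 8501 to 9072 normalized counts in wild-type and to 8161 to 10898 in *Rdh10* KO. One library stood apart by its erythroid RNA, since embryonic erythroid genes summed to 51251 normalized counts in *Rdh10* KO replicate 1 and to between 101021 and 157173 in the other 5 libraries.

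All 35 genes passed the filter on low values, a mean above 0.5 normalized counts, and the fewest reads of any of them in a library was 4. A gene was called at an adjusted p-value under 0.05 (limma) and a log2 fold change beyond 0.85. Log2 fold changes are *Rdh10* KO minus wild-type on log2(value + 0.1), given with their standard errors. These standard errors are the moderated ones of limma, which also use the variance of other genes. Of the 35 genes, 18 were called higher in *Rdh10* KO and 0 were called lower. With the edgeR and DESeq2 tests on recovered reads, 19 were higher and 0 lower, and at an unadjusted p-value under 0.05 in limma 3 were lower. Over all 22921 genes tested, 2.41% were called higher and 0.886% lower. Without the log2 cut-off, 27 of the 35 genes passed in the higher direction and 3 in the lower, where 10.3% and 9.12% of all genes passed. In 28 genes all 3 *Rdh10* KO libraries lay above all 3 wild-type libraries, in 3 they lay below, and in 4 the groups overlapped. The groups did not overlap in 17.6% of all genes in the higher direction and in 17.0% in the lower. The median log2 fold change was 0.94 over the 35 genes and 0.0036 over all genes tested.

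**Figure D1:**
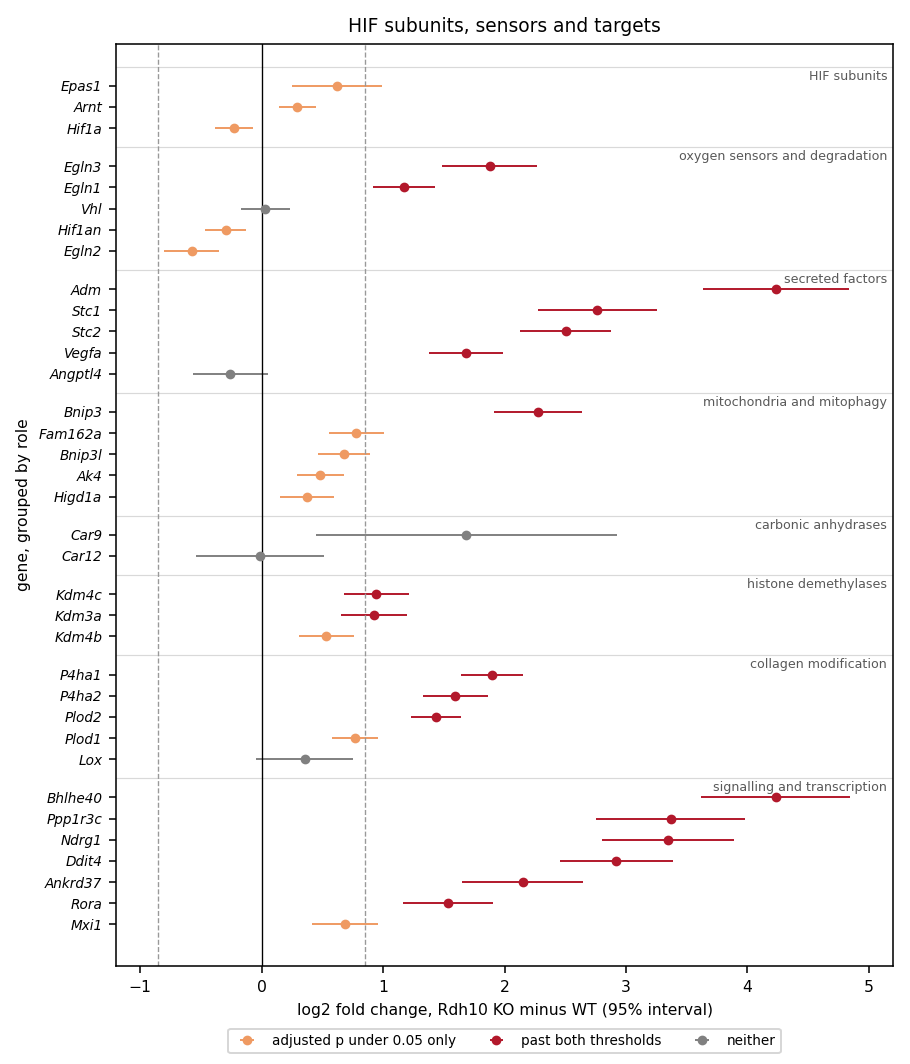
Log2 fold change (*Rdh10* KO minus wild-type, 3 libraries per group) with its 95% interval from limma for each of the 35 genes, grouped by role, with dashed lines at the cut-offs of 0.85 on either side. The 18 red points passed both thresholds and all lie on the right, and the subunits and sensors have a median of 0.16 against 1.54 for the 27 targets.

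The plot of fold changes by role shows that the subunits and sensors were mixed in direction and that the targets were mostly higher. The values of the 27 targets spanned −0.26 to 4.24, and 16 of them were called higher. Of the 8 subunits and sensors, 2 were called higher, both of them prolyl hydroxylases. Fold changes beyond 4 were seen in 9 genes and beyond 10 in 4 genes, namely *Bhlhe40*, *Adm*, *Ppp1r3c* and *Ndrg1*. In sum, the 35 genes came to 34141 to 35215 normalized counts in wild-type and to 55174.5, 81492 and 72375 in *Rdh10* KO replicates 1, 2 and 3.

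HIF binds DNA at hypoxia response elements, whose 5-letter core is ACGTG or GCGTG. Cores were searched on both strands in the RefSeq promoter table (GRCm38.p6), which gives 250 bases before and 50 after each listed start, and CACGTG counts once on each strand. The table held 26 of the 35 genes. A core was present in 23 of the 26 genes (88.5%), in 62.5% of the 13350 tested genes that the table holds and in 46.7% of all its genes. The form ACGTG was present in 18 of the 26 genes (69.2%), in 27.0% of the tested genes and in 21.8% of all genes. Windows of the 26 genes had a median GC content of 64.3%, against 59.7% for the tested genes and 52.7% for all genes, and both cores hold a CG. The part of base composition in the shares was not tested. A core was present in all 14 of the called genes with a window and in 9 of the 12 others (75.0%). ACGTG was present in 11 of the 14 (78.6%) and 7 of the 12 (58.3%). In all these shares, a gene counts if any of its listed starts has the core. The 26 genes had 36 listed starts, the 13350 tested genes had 16941, and all 27025 genes of the promoter table had 32851. The part of the number of starts in the shares was not tested. Many of the 35 genes were listed as known HIF targets, so the shares describe the list and are not a test of it. *Vegfa* and *Kdm4c*, both called, had no core at their outermost listed start. The cores of *Vegfa* lie before a start inside the gene, in a window with 218 annotated exon bases. Those of *Kdm4c* lie before another start inside the gene. No core was found in the windows of *Vhl*, *Car12* and *Hif1an*. The 6 stretches below belong to called genes with ACGTG before the start and few exon bases in the window, and they show how the cores are placed. Each reads 5′ to 3′ in the direction of the gene, and capitals mark the cores, with CACGT and CACGC as the cores on the opposite strand.
Bnip3, chr7:138909507-138909653, minus strand: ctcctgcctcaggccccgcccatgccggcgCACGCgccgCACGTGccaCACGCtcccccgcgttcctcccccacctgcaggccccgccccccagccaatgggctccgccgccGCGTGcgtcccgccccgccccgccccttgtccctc
Ankrd37, chr8:45999851-46000100, minus strand: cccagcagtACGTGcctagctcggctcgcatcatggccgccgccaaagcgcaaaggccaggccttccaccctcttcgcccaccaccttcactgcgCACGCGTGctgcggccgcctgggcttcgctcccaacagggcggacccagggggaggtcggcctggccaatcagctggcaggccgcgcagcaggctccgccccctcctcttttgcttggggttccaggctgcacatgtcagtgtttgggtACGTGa
Egln3, chr12:54204069-54204124, minus strand: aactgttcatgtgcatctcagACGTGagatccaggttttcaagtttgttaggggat
P4ha1, chr10:59323103-59323295, plus strand: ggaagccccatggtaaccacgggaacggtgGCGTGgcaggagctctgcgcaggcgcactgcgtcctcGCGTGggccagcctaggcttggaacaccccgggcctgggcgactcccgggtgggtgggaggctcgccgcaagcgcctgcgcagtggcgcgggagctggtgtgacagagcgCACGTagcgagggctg
P4ha2, chr11:54100787-54100889, plus strand: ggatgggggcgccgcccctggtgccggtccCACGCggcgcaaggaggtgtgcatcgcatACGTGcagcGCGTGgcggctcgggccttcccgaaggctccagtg
Rora, chr9:68653569-68653653, plus strand: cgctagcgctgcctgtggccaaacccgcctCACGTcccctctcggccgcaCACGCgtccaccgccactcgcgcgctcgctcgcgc

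*Bnip3* had 5 cores between positions −117 and −31 from its start, among them the palindrome CACGTG, flanked by a CACGC on either side. *Ankrd37* had an ACGTG that ended at position −2, and another at the far end of its window. *Egln3* had 1 core in its window. A match shows only that these letters are present, and binding was not measured. In the plot of cores by distance, the 26 genes are ordered by fold change.

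**Figure D2:**
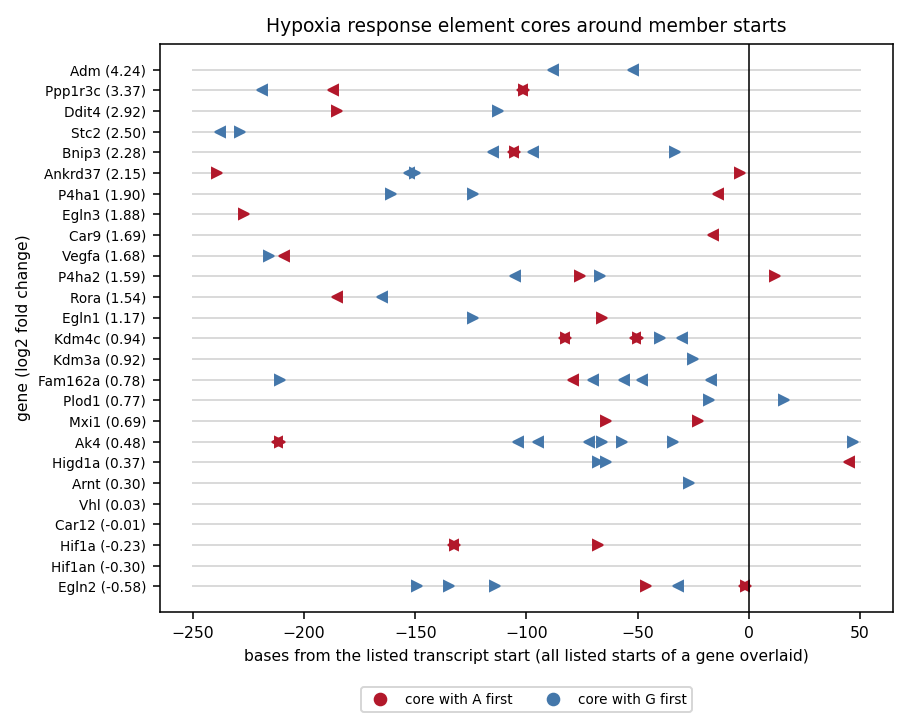
Positions of the cores in the windows around the listed starts of 26 genes, in bases from the start (0) and ordered by log2 fold change (in brackets). Triangles point right for the gene's own strand and left for the opposite strand. Red marks the core with A first and blue the core with G first. A red right and a red left triangle side by side mark the palindrome CACGTG. All listed starts of a gene are overlaid, and a core near several starts is drawn for each, as in *Ak4*. Every called gene shown has a core at some listed start, and so do genes with a fold change near or below 0, such as *Hif1a* and *Egln2*.

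The RNA of all 3 HIF subunits differed by less than the cut-off. *Hif1a*, which encodes the alpha subunit HIF-1alpha, was at 4089, 4139.65 and 4192 normalized counts in wild-type and at 3801, 3628 and 3205 in *Rdh10* KO. All 3 *Rdh10* KO libraries lay below wild-type, with a log2 fold change of −0.23 ± 0.073, within the cut-off of 0.85. *Epas1*, which encodes the alpha subunit HIF-2alpha and is known for its expression in endothelium, was at 131, 180.3 and 143 in wild-type and at 213, 197 and 292 in *Rdh10* KO. The groups were separate, and the log2 fold change was 0.62 ± 0.17. Of the 10 endothelial markers listed, 5 (*Pecam1*, *Kdr*, *Cdh5*, *Tie1* and *Sox17*) were higher at an adjusted p-value under 0.05, while *Egfl7*, *Emcn*, *Tek* and *Esam* had log2 fold changes of 0.01 to 0.19 and *Cldn5* was at −0.34, lower at an unadjusted p-value under 0.05 only. The sum of all 10 was 4329 to 4853 in wild-type and 5615 to 6139 in *Rdh10* KO. Their part in the value of *Epas1* was not tested. *Arnt*, the common partner, was at 1285, 1404 and 1328 in wild-type and at 1632, 1647 and 1647 in *Rdh10* KO, a log2 fold change of 0.30 ± 0.072. Per transcript length, *Hif1a* was at 26.4 ± 4.1 times (SD, n = 3) the level of *Epas1* in wild-type and at 14.9 ± 3.9 times in *Rdh10* KO.

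Of the 3 prolyl hydroxylases, 2 were higher and 1 was lower. *Egln1* (chromosome 8, 124908587 to 124949324, minus strand, GRCm38), which encodes PHD2, the main oxygen sensor in most cells, was at 2103, 2183 and 1947 in wild-type. It was at 3654, 5036 and 5536 in *Rdh10* KO, a log2 fold change of 1.17 ± 0.12. *Egln3* (chromosome 12, 54178981 to 54203860, minus strand), which encodes PHD3 and is a strongly inducible HIF target, was at 255, 239 and 258 in wild-type and at 629, 1261 and 985 in *Rdh10* KO. Its log2 fold change was 1.88 ± 0.18, and its lowest *Rdh10* KO library was above 2 times its highest wild-type library. *Egln2*, which encodes PHD1 and is not known to be induced by hypoxia, was at 2159.6, 2197 and 1987 in wild-type. It was at 1627, 1165 and 1504 in *Rdh10* KO, a log2 fold change of −0.58 ± 0.11, with all 3 libraries below wild-type.

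*Vhl* was at 1112, 1086 and 1146 in wild-type and at 1184, 1267 and 985 in *Rdh10* KO. Its groups overlapped, and the 95% interval of its log2 fold change ran from −0.17 to 0.23. *Hif1an* was at 3394, 3342 and 3446 in wild-type and at 3069.6, 2794 and 2457 in *Rdh10* KO. All 3 *Rdh10* KO libraries lay below wild-type, by −0.30 ± 0.080 on the log2 scale.

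The levels per length show how the balance of the sensors shifted. In FPKM, which scales the recovered reads by exon length and library total, *Egln2* was the highest of the 3 prolyl hydroxylases in wild-type at 38.6 ± 2.0 (SD, n = 3). *Egln1* was at 29.5 ± 1.7 and *Egln3* at 4.81 ± 0.20. In *Rdh10* KO, *Egln1* was the highest at 67.7 ± 14.0, *Egln2* was at 26.3 ± 4.6, and *Egln3* was at 18.5 ± 5.9. The ratio of *Egln1* to *Egln2* was 0.759, 0.774 and 0.764 in wild-type and 1.75, 3.37 and 2.87 in *Rdh10* KO. The ratio of *Egln3* to *Egln2* went from 0.125 ± 0.011 to 0.745 ± 0.37. No ratio in *Rdh10* KO overlapped the wild-type range for either pair.

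**Figure D3:**
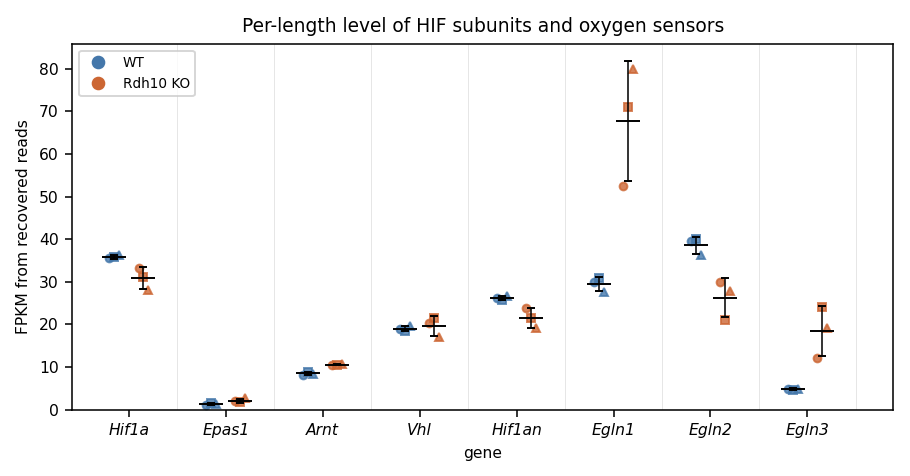
FPKM of 3 HIF subunits and 5 sensor and degradation genes in each library (blue for wild-type, orange for *Rdh10* KO, with circles, squares and triangles for replicates 1, 2 and 3), with the mean and SD as black lines (n = 3). *Egln1* and *Egln3* lie above wild-type in all 3 *Rdh10* KO libraries, *Egln2*, *Hif1a* and *Hif1an* lie below, and *Vhl* overlaps.

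Of the 5 targets that encode secreted factors, 4 were called higher. *Adm* (chromosome 7, 110627661 to 110629820, plus strand), which encodes the vessel-dilating peptide adrenomedullin, was at 23.5, 22.3 and 26.3 in wild-type and at 263, 703 and 505 in *Rdh10* KO. Its mean was 20.4 times that of wild-type, and its log2 fold change of 4.24 ± 0.28 was level with that of *Bhlhe40* at the top of the 35. *Vegfa* (chromosome 17, 46016993 to 46032369, minus strand), which encodes the main growth factor for blood vessels, was at 878, 854 and 868 in wild-type and at 2038, 3024 and 3491 in *Rdh10* KO. The wild-type libraries lay close together, and each *Rdh10* KO library was above 2 times their level, with a log2 fold change of 1.68 ± 0.14.

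*Stc1* and *Stc2* encode the stanniocalcins, secreted glycoproteins first described in calcium and phosphate balance. *Stc1* was at 67.5, 56.8 and 73.3 in wild-type and at 294, 648 and 462 in *Rdh10* KO, a log2 fold change of 2.76 ± 0.23. *Stc2* was at 112, 145 and 139 in wild-type and at 556, 977 and 757 in *Rdh10* KO, a log2 fold change of 2.50 ± 0.18. The ratio of *Stc1* to *Stc2* per length was 0.627 ± 0.13 (SD, n = 3) in wild-type, while *Rdh10* KO had 0.741 ± 0.083, and the ranges overlapped. *Angptl4*, which encodes an inhibitor of lipoprotein lipase, was not called. It was at 231, 240.4 and 189 in wild-type and at 198, 163 and 191 in *Rdh10* KO, and the 95% interval of its log2 fold change ran from −0.56 to 0.05.

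The 5 genes with a role at mitochondria were all higher in *Rdh10* KO with groups that did not overlap, and 1 of them was called. *Bnip3* (chromosome 7, 138890836 to 138909519, minus strand), which encodes an outer membrane protein that promotes mitophagy, was at 935, 916 and 937 in wild-type and at 3199, 6360.0 and 4476 in *Rdh10* KO. Its log2 fold change was 2.28 ± 0.17. *Bnip3l*, its close relative, was at 2840.0, 3032 and 3100.1 in wild-type and at 4359, 5828 and 4329.7 in *Rdh10* KO, a log2 fold change of 0.68 ± 0.10. Per length, *Bnip3* was at 0.53 ± 0.027 times the level of *Bnip3l* in wild-type and at 1.62 ± 0.33 times in *Rdh10* KO. *Fam162a*, a HIF target linked to cell death in hypoxia, went from a mean of 1898 ± 49 to 3293 ± 587 normalized counts (SD, n = 3), a log2 fold change of 0.78 ± 0.11. *Ak4*, a mitochondrial adenylate kinase, and *Higd1a*, which binds respiratory chain complexes, had smaller log2 fold changes of 0.48 ± 0.090 and 0.37 ± 0.10.

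Neither carbonic anhydrase gene was called. *Car9*, whose product regulates pH at the cell surface and is a widely used hypoxia marker, was at the lowest level of the 35 genes, with 11.25, 4.45 and 16.9 normalized counts in wild-type. It was at 25.8, 17.1 and 65.9 in *Rdh10* KO, and the groups were separate but close. Its log2 fold change of 1.69 ± 0.58 had a 95% interval from 0.45 to 2.92, and it did not pass the adjusted threshold with limma. It was called by the edgeR and DESeq2 tests on the recovered reads. *Car12* was at 338, 355 and 314 in wild-type and at 269, 585 and 232 in *Rdh10* KO. A single library, *Rdh10* KO replicate 2, was above wild-type and the other two were below, and the log2 fold change was −0.01 ± 0.25.

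The 3 histone demethylases, enzymes that need oxygen and remove methyl groups from histone H3, were all higher. *Kdm3a* was at 2155, 2268 and 1995 in wild-type and at 3116, 4968 and 4299 in *Rdh10* KO, a log2 fold change of 0.92 ± 0.13. *Kdm4c* was at 412, 422 and 351 in wild-type and at 627, 795 and 874 in *Rdh10* KO, a log2 fold change of 0.94 ± 0.12. Both lay just past the cut-off of 0.85, and *Kdm3a* was at 0.78 without *Rdh10* KO replicate 2, and *Kdm4c* was at 0.84 without *Rdh10* KO replicate 3. *Kdm3a* was also not called without wild-type replicate 1, where its log2 fold change was 0.93. *Kdm4b* went from a mean of 1109 ± 130.1 to 1606 ± 198 (SD, n = 3), a log2 fold change of 0.53 ± 0.10, and was not called.

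Collagen-modifying enzymes were higher in 4 of 5 genes. *P4ha1* (chromosome 10, 59323296 to 59373304, plus strand), which encodes the catalytic subunit of the main collagen prolyl 4-hydroxylase, was at 1354.5, 1269 and 1188 in wild-type and at 3687, 5351 and 5332 in *Rdh10* KO. Its log2 fold change was 1.90 ± 0.12. *P4ha2*, which encodes the alternative catalytic subunit, was at 306, 395 and 389 in wild-type and at 917, 1182 and 1192 in *Rdh10* KO, a log2 fold change of 1.59 ± 0.12. Of the lysyl hydroxylases, *Plod2*, which modifies the collagen telopeptides, was at 1120.2, 1128 and 1283 in wild-type and at 2739.5, 3528 and 3331 in *Rdh10* KO, a log2 fold change of 1.44 ± 0.095. *Plod1*, which modifies the helical part, went from 609.9 ± 30.1 to 1038 ± 76 (SD, n = 3), a log2 fold change of 0.77 ± 0.088, and was not called.

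*Lox* encodes lysyl oxidase, which cross-links collagen and elastin. It was at 219, 215 and 175 in wild-type and at 182, 314 and 301 in *Rdh10* KO. Its groups overlapped through *Rdh10* KO replicate 1, and the 95% interval of its log2 fold change ran from −0.05 to 0.76.

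Of the 7 genes for signalling, metabolism and transcription, 6 were called, and their median log2 fold change was 2.92. *Ddit4* (chromosome 10, 59949669 to 59951834, minus strand), which encodes the mTORC1 inhibitor REDD1, was at 1200.0, 1249 and 1020.2 in wild-type and at 5231, 12309 and 10299.5 in *Rdh10* KO. Its log2 fold change was 2.92 ± 0.22, and it had the highest normalized counts of the 35 genes in *Rdh10* KO. *Ndrg1* (chromosome 15, 66929318 to 66969640, minus strand), a stress-responsive gene of differentiating cells, was at 101, 118 and 114 in wild-type and at 628, 1664 and 1375 in *Rdh10* KO, a log2 fold change of 3.35 ± 0.25. *Ppp1r3c* (chromosome 19, 36731731 to 36736653, minus strand), which encodes a glycogen-targeting subunit of protein phosphatase 1, was at 64.5, 72.3 and 62.1 in wild-type and at 389.5, 1221 and 671 in *Rdh10* KO, a log2 fold change of 3.37 ± 0.28.

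*Bhlhe40* (chromosome 6, 108660629 to 108666925, plus strand) encodes the transcriptional repressor DEC1. It was at 50.1, 36.7 and 48.9 in wild-type and at 453, 1284 and 1034 in *Rdh10* KO. Its mean was 20.4 times that of wild-type, and its log2 fold change was 4.23 ± 0.29. *Ankrd37*, which encodes an ankyrin repeat protein, was at 115, 130.2 and 114 in wild-type and at 325, 792 and 577 in *Rdh10* KO, a log2 fold change of 2.15 ± 0.23. *Rora*, which encodes an orphan nuclear receptor, was at 151, 103 and 118 in wild-type and at 284, 398 and 401 in *Rdh10* KO, a log2 fold change of 1.54 ± 0.17. *Mxi1*, which encodes a MAX partner that opposes MYC, went from 809 ± 63 to 1322 ± 269.7 (SD, n = 3), a log2 fold change of 0.69 ± 0.13, and was not called.

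**Figure D4:**
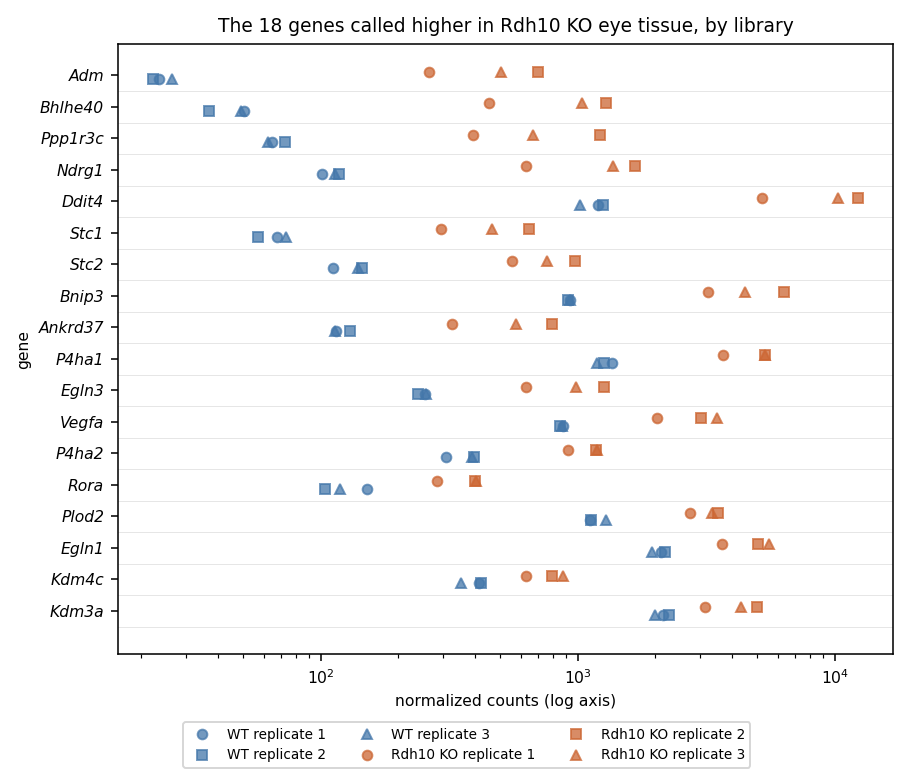
Normalized counts (log axis) of the 18 genes called higher, ordered by log2 fold change, in each of the 3 wild-type (blue) and 3 *Rdh10* KO (orange) libraries, with circles, squares and triangles for replicates 1, 2 and 3. No gene's groups overlap, and the circle of *Rdh10* KO replicate 1 is the lowest of the 3 *Rdh10* KO points in every gene.

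The *Rdh10* KO pools differed among themselves in these genes. In all 18 called genes *Rdh10* KO replicate 1 was the lowest of the 3 *Rdh10* KO libraries, as it was in 30.8% of the 15272 genes with a mean above 10. The highest was replicate 2 in 13 of the called genes and replicate 3 in 5. The median log2 difference of the called genes from the wild-type mean was 1.49 in replicate 1, 2.53 in replicate 2 and 2.17 in replicate 3. The spread was also wider than in wild-type: the median SD of log2 values over the 35 genes was 0.109 in wild-type and 0.309 in *Rdh10* KO, where genes with a mean above 10 had medians of 0.107 and 0.153. *Ppp1r3c* and *Bhlhe40* had the widest spread of the called genes in *Rdh10* KO, with SDs of 0.82 and 0.79, and *Plod2* the narrowest at 0.19.

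*Rdh10* KO replicate 1 was also the library with the low erythroid RNA, with a median log2 difference from the wild-type mean of −1.19 over the 10 erythroid genes, against 0.03 in replicate 2 and 0.41 in replicate 3. It was also the most deeply sequenced. The part of blood content or depth in the order of the *Rdh10* KO pools was not tested. Without *Rdh10* KO replicate 1, the called genes numbered 20, with *Fam162a* and *Mxi1* added, and the median log2 fold change over the 35 genes was 1.11.

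The levels per length place these genes among each other. In wild-type, *Fam162a* was the highest of the 35 at 114 ± 2.7 FPKM (SD, n = 3). It was followed by *Bnip3l* at 39.6 ± 1.7, *Egln2* at 38.6 ± 2.0, *Hif1a* at 35.9 ± 0.42 and *Ddit4* at 33.7 ± 3.5, and the values of neighbours in this order overlapped from *Bnip3l* on. In *Rdh10* KO, *Ddit4* was at 271 ± 105 and *Fam162a* at 199 ± 34, whose libraries overlapped, and *Bnip3* followed at 106 ± 35. The 4 genes with fold changes beyond 10, *Adm*, *Bhlhe40*, *Ppp1r3c* and *Ndrg1*, were at 0.759, 0.492, 1.24 and 0.860 FPKM in wild-type and at 15.5, 10.1, 14.3 and 9.50 in *Rdh10* KO. *Car9* stayed the lowest in both groups, at 0.241 and 0.811.

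Another 62 genes of the HIF pathway, listed from general knowledge with earlier results of these data known, were also mostly higher. Of these, 26 were called higher and 0 lower (27 and 0 with the edgeR and DESeq2 tests), 5 were lower at an unadjusted p-value under 0.05, and their median log2 fold change was 0.63. Among the 20 glycolytic targets 12 were called, and those with the largest log2 fold changes were *Pfkp* at 2.88, *Aldoc* at 2.09, *Slc2a3* at 2.07 and *Pfkfb3* at 2.03. Among 30 further targets 13 were called, led by *Vldlr* at 2.29, *Ero1l* at 2.27, *Tmem45a* at 1.61 and *Edn1* at 1.43. Among 12 genes of the HIF machinery, which act in degradation or as partners, only *Hif3a* was called, at 1.40. It encodes another alpha subunit, and it was at 242.5, 183 and 219 normalized counts in wild-type and at 472, 534 and 708 in *Rdh10* KO. Without the cut-off, 5 of the 12 machinery genes were higher and 5 were lower. Beside *Hif3a*, the highest were *Siah2*, a ubiquitin ligase, at 0.71 and *Ep300*, a coactivator of HIF, at 0.66. The lowest were *Eloc* and *Elob*, the elongins that join *Vhl* in its ubiquitin ligase, at −0.51 and −0.42.

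**Figure D5:**
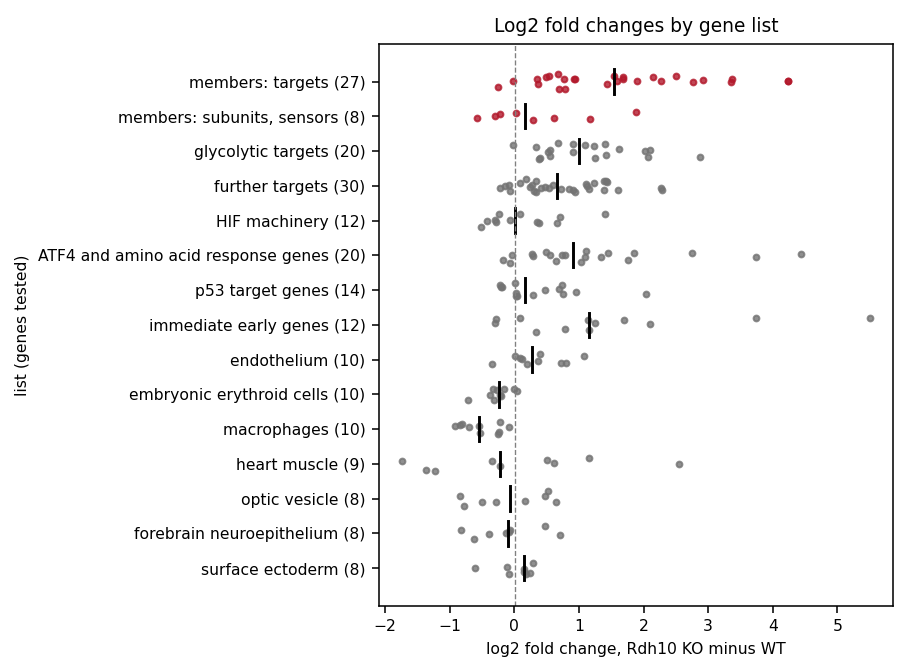
Log2 fold change (*Rdh10* KO minus wild-type) of each gene in the lists, with the number of genes tested in brackets, the median of each list as a black bar and the median of all genes tested as a dashed line. The 35 genes are in red, and the target lists have medians of 1.54, 0.998 and 0.66, while the machinery list has a median of 0.01.

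Several other lists are given beside these, in the plot of log2 fold changes by gene list. *Ddit4* and *Stc2* are also known targets of ATF4, a factor of the amino acid response, and the list of ATF4 and amino acid response genes had 8 of 20 called higher and a median of 0.91. Immediate early genes, which respond fast to many stimuli, had 6 of 12 called higher and a median of 1.15, and p53 targets had 2 of 14 and a median of 0.16. For other cell types, 0 genes of the erythroid, macrophage, heart muscle, optic vesicle, forebrain and surface ectoderm lists were called in either direction with limma or DESeq2. Of these 52 genes, 6 were higher and 11 lower at an unadjusted p-value under 0.05, and 2 were called lower with edgeR. Of 10 endothelial genes, 1 (*Sox17*) was called higher. Macrophage genes had a median of −0.54, and heart muscle genes summed to 92.4 to 110.5 normalized counts in wild-type and 83.55 to 112 in *Rdh10* KO. The part of these responses and cell types in the values of the 35 genes was not tested.

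Some values are less certain because other genes share their sequence. Transcripts of 5 other genes or pseudogenes match a *Bnip3* transcript over at least 200 bases at 95% identity or more. Not all of them have listed counts. Of those that do, *Gm16439* had the most and went from a mean of 2.08 to 19.4 normalized counts. Matches of this kind were also found for *Ak4*, *Bnip3l*, *Higd1a*, *Plod2* and *Stc1*. The counts of the matching genes, where listed, were at most 50.4 in any group mean. The only matches of *Plod2* and *Stc1*, *Gm38391* and *Gm41192*, are genes whose exons overlap theirs on the opposite strand, and not copies elsewhere. The same holds for *Gm47112* of *Higd1a* and *Gm45507* of *Bnip3*. Exons of *Ankrd37* overlap those of *Ufsp2* on the opposite strand, whose mean was 753 in wild-type and 864 in *Rdh10* KO. Exons of *Car9* overlap those of *Gm12454* on the opposite strand, whose mean was 9.14 in wild-type and 24 in *Rdh10* KO. The means of *Car9* itself were 10.9 and 36.2. The library kit kept strand, but whether the counting used it is not given in the sources used here, so reads of such pairs may be shared.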

How the data were processed

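RNA-seq of 3 wild-type and 3 *Rdh10* KO pools was analysed. According to the methods, the authors made directional poly(A)-selected libraries, aligned reads to mm10 with TopHat (also in the submitters' processing notes), estimated transcript abundance by Expectation–Maximization, normalized to FPKM and tested with the edgeR likelihood ratio test. The signal values that the authors deposited are, however, whole reads per gene divided by 1 median-of-ratios factor per library (normalized counts), not FPKM. FPKM had been assumed when the tests were set. Whole reads were recovered for 99.986% of values in *Rdh10* KO replicate 3 and 100% in the other 5 libraries (tolerance 0.0051). The table holds no fold changes or p-values. Of its 26438 lines, 1 names no gene and was left out.

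For genes with a mean above 0.5, log2(value + 0.1) was fitted by limma 3.58.1 (R 4.3.3, intensity trend, Benjamini–Hochberg over 22921 genes, no covariate). Calls required a log2 fold change beyond 0.85 and an adjusted p-value under 0.05. Pools, not single embryos, are the units of the tests. limma draws the variance of each gene towards that of genes at a similar level. In *Rdh10* KO the median SD of log2 values was 0.309 over the 35 genes and 0.153 over genes with a mean above 10. Standard errors, intervals and p-values of the 35 genes may therefore understate the spread between their own pools. edgeR 4.0.16 and DESeq2 1.42.0 on recovered reads, the replicate number as a block, other pseudocounts, filters and scalings, and leaving out each library were alternatives. The tests were run first on simulated data with known changes. FPKM used the recovered reads and exon lengths of GENCODE mouse release 21 (GRCm38), which held 26288 of the 26437 genes. Python 3.11.15 and matplotlib 3.10.9 were used for tables and plots.

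The 35 genes and all lists were chosen with earlier results of these data known. All 35 are named, called ones with every library. Of other pathway genes, up to 4 called ones with the largest change per list are named. *Siah2*, *Ep300*, *Eloc*, *Elob* and genes of the marker lists were named after their values were seen. Results of 1 marker list are not reported here.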

Additional observations from a re-analysis of the deposited data

How the results depend on the processing

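With 18 alternatives for each of the 35 genes, 605 of 630 fold changes kept their direction and their side of the threshold, 8 lost the call, 9 gained it and 8 changed sign. The count of genes called higher ranged from 14 (limma without the intensity trend, which lost *Egln1*, *Kdm3a*, *Kdm4c* and *Ankrd37*) to 20 (without *Rdh10* KO replicate 1, which added *Fam162a* and *Mxi1*), and was 17 to 20 over the settings that left out 1 library. *Kdm3a* also lost its call under median scaling (0.84) and without wild-type replicate 1 or *Rdh10* KO replicate 2, and *Kdm4c* without *Rdh10* KO replicate 3. *Car9* gained a call with a pseudocount of 1, with both stricter filters, with the replicate block and with edgeR and DESeq2. With no log2 cut-off, 27 were higher and 3 lower (*Hif1a*, *Egln2* and *Hif1an*), but this depended on the setting. For *Hif1a* the adjusted p-value was 0.040 with edgeR quasi-likelihood, 0.021 with DESeq2 and 0.057 with the edgeR likelihood ratio test. In limma it was 0.10 with the replicate block and 0.16 to 0.18 without 1 wild-type library. With the block, *Egln2* was at 0.011, *Hif1an* at 0.052 and *Epas1*, among the 27, at 0.056. Without the intensity trend, *Egln2* was at 0.11. The sign changed in *Vhl* (−0.05 under median scaling, and −0.05 to 0.14 leaving out 1 library) and in *Car12* (0.11 with both edgeR tests and with DESeq2, and −0.42 to 0.24 leaving out 1 library), both of them near 0. The exact values were −0.054 and −0.046 for *Vhl* and 0.110, 0.113 and 0.109 for *Car12*. Of the other 62 HIF pathway genes, 13 were called higher without the trend, and 44 were higher and 5 lower without the cut-off. The cause of these changes was not tested.

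Over all genes, limma without the trend called 294 higher and 118 lower, the edgeR likelihood ratio test 753 and 343, and without wild-type replicate 1, 2 or 3 the genes called lower were 52, 60 and 69. Calls without *Rdh10* KO replicate 2 or 3 were 413 and 155, and 332 and 140. Lower genes made up 26.9% of calls, and 39.2% under median scaling (446 higher and 288 lower), which shifted the median of all genes by −0.086.

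Same-numbered libraries did not deviate together (correlations of −0.0258, −0.0345 and −0.0741 over 15272 genes). What the numbers stand for is not given in the sources used here, and these correlations cannot show whether same-numbered pools were handled together. With the replicate block, 19 of the 35 genes were called higher, and over all genes 460 higher and 139 lower. Precision is limited by 3 pools per group, and for *Car9* by depth, with 4 reads in its lowest library.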

Other observations

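A gene on the opposite strand of *Hif1a* was far higher in *Rdh10* KO, while *Hif1a* itself was slightly lower, and it was chosen after its values were seen. *Gm15283* (ENSMUSG00000087700.1, chromosome 12, 73843039 to 73949814, minus strand, GRCm38) spans *Hif1a* on the annotation and shares exon positions with it. It was at 3.07, 2.23 and 2.82 normalized counts in wild-type, which is 2 or 3 reads per library, and at 20.1, 82.1 and 28.2 in *Rdh10* KO, from 28, 77 and 24 reads. Against a floor of 3 reads in each wild-type library, its mean was at least 14.1-fold higher, and at least 7.85-fold higher without *Rdh10* KO replicate 2, a setting chosen after seeing the data. Its adjusted p-value was 0.000707 (limma). Whether the counting used strand is not given in the sources used here, so reads of *Hif1a* and *Gm15283* may be shared. *Hif1a* had at least 2724 reads in every library.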
